A study of Mus musculus with 15 samples.

Results

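The minichromosome maintenance (MCM) genes Mcm2, Mcm3, Mcm4, Mcm5, Mcm6, Mcm7 and Mcm10 were followed in RNA from mouse inguinal white adipose tissue, the fat depot under the skin of the groin. They were found by gene symbol and are 7 of the 37991 features in the deposited count table. Mcm6 was selected on its measured level, which was lower in one group of these same libraries, so all differences of Mcm6 between groups are given as descriptions with no test. The other 6 genes were taken by name as the rest of the family. Of the 7, 6 passed the filter on low counts that defines the genes tested, and Mcm10 did not.

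The proteins MCM2 to MCM7 form a ring, with each subunit present in it, that is loaded onto DNA at replication origins before S phase. The ring later becomes the motor of the replicative helicase, which unwinds the parental strands, once CDC45 and the GINS complex have joined it. MCM10 is not part of the ring but is needed to set the loaded helicase in motion. Transcription of these genes rises when cells prepare to divide, under E2F factors that the retinoblastoma protein holds back in resting cells. Mature adipocytes do not divide, so in adipose tissue dividing cells are mostly sought among the progenitor, immune and vascular cells around them.

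The 15 libraries came from C57BL/6 mice aged 8 weeks, 5 libraries in each of 3 groups, which the series gives as 5 mice each although 2 dKO titles share a mouse number. All carried floxed alleles of LKB1, the kinase gene named Stk11 in the table. The group named WT was LKB1 F/F with no Cre in its label, KO was AdipoqCre LKB1 F/F, and dKO was AdipoqCre LKB1 F/F; HDAC4 F/F, with floxed alleles of the class IIa histone deacetylase gene Hdac4 as well. The adiponectin promoter drives this Cre in adipocytes, so the other cells of the tissue keep both genes. The labels name no HDAC4 F/F group with intact LKB1, so the comparison of dKO with KO shows the addition of the Hdac4 deletion on the LKB1-deleted background only. KO and WT were each compared with the other groups, so the 3 comparisons share libraries.

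Libraries held 1564004 to 21570688 counts, of which 33.5 to 50.03% fell on the mitochondrial ribosomal RNAs, and 103 to 1322 counts per library fell on the 7 MCM genes. Levels are given as CPM, counts scaled to a common library size with TMM factors, and 3 counts were worth 0.145 to 1.87 CPM. Stk11 averaged 29.6 ± 6.33 CPM (WT), 17.97 ± 4.20 (KO) and 19.4 ± 2.84 (dKO; SD, n = 5 each), and the longer Hdac4 feature 12.2 ± 3.16, 10.3 ± 2.16 and 10.3 ± 0.794 CPM. The shorter Hdac4 feature averaged 7.08, 5.45 and 5.49 CPM. Neither Hdac4 feature had a lower mean in dKO than in KO, so these counts over whole genes, which do not isolate the deleted exons, give no check of the added Hdac4 deletion. Adipocyte markers such as Adipoq summed to 4109 CPM or more in every library. The dKO replicates 4 and 5 have titles with the same mouse number, and their counts differed by a chi-square of 2.62 per degree of freedom, against 3.21 to 36.9 for the 29 other pairs within groups. Values without both or with the pair summed are given where they move a result. All 5 dKO libraries, and no others, used barcodes numbered 12 to 16, so genotype cannot be told apart from barcode.

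Mcm6, the ring subunit between MCM2 and MCM4, was lower in dKO than in KO and WT, the difference on which it was chosen. It was therefore not tested. Of the other 5 ring subunits, which were tested, none was called in any comparison. Among all genes, 0.624% were called between KO and WT, 0.0738% between dKO and KO, and 0.615% between dKO and WT. No call among 5 genes is near this background and does not set Mcm6 apart from them. The gene Mcm6 (ENSMUSG00000026355) lies on the minus strand of chromosome 1 at 130228168 to 130256233 in build mm9. It has 16 exons and 4366 bases of exon. The levels of Mcm6 follow by library. In WT its counts were 66, 53, 39, 40 and 66, which correspond to 17.3, 16.4, 11.6, 15.3 and 17.6 CPM. In KO they were 273, 110, 21, 69 and 46, or 13.2, 18.2, 9.03, 19.9 and 16.7 CPM. In dKO they were 29, 12, 11, 52 and 75, or 9.41, 3.01, 6.84, 6.07 and 6.36 CPM. All 5 dKO libraries were thus below all 5 WT libraries, and dKO overlapped KO only in that KO replicate 3 was below dKO replicate 1.

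The group means of Mcm6 and their SD (n = 5 each) were 15.6 ± 2.44 CPM for WT, 15.4 ± 4.32 for KO and 6.34 ± 2.28 for dKO. In the edgeR fit over all genes, dKO was lower than KO by 2.48-fold (log2 fold change -1.31, SE 0.25) and lower than WT by 2.51-fold (log2 fold change -1.33, SE 0.25). Between KO and WT the log2 fold change was -0.02 (SE 0.24). Because this difference chose Mcm6, no p-value is attached to it. Over every alternative run, including each library left out in turn, the fitted log2 fold change stayed between -1.48 and -1.14 against KO and between -1.51 and -1.17 against WT.

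**Figure D1:**
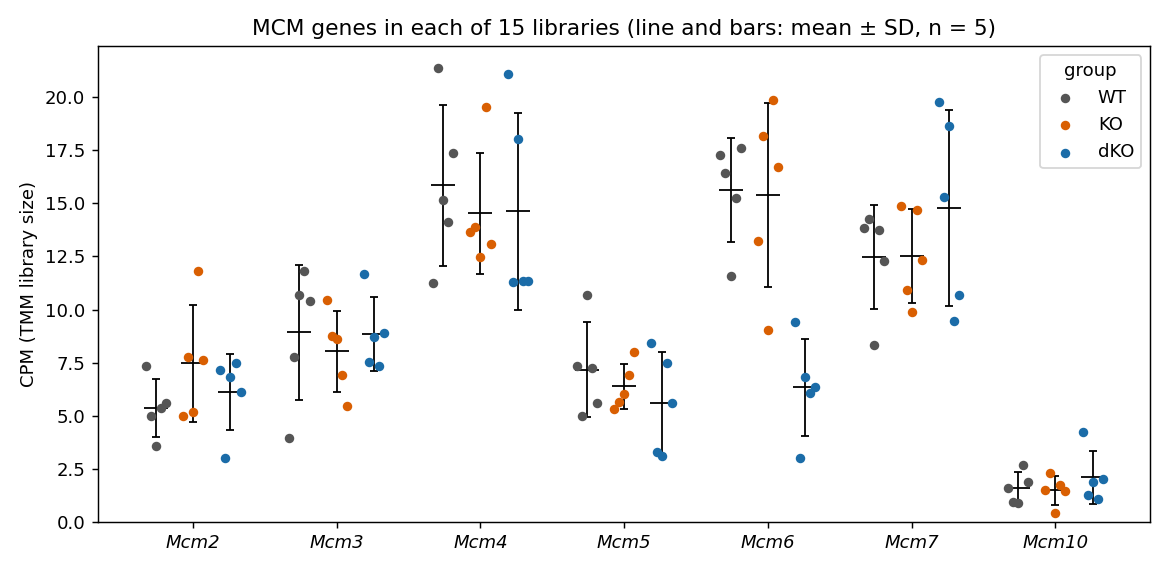
Level of each MCM gene in CPM (y axis, TMM library size) in the 15 libraries, with 1 point per library coloured by group, a line at the group mean and bars of 1 SD (n = 5). Mcm6 lies between 3.01 and 9.41 CPM in dKO, between 9.03 and 19.9 CPM in KO and between 11.6 and 17.6 CPM in WT. Its dKO libraries overlap those of KO but not those of WT, while all groups of the other genes overlap.

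The promoters of the members are described because the subunits are known to be switched on together by E2F factors. The RefSeq promoter table of build GRCm38.p6 gives windows from 250 bases before to 50 bases after a start site for 6 of the 7 members. The windows were searched on both strands for the letters TTTCCCGC, TTTCGCGC, TTTGCCGC and TTTGGCGC, common forms of the E2F recognition motif. These letters occur in 4 of the 6 members with an entry, against 2.26% of all 32851 promoters in the table. The windows of those 4 are printed 5′ to 3′ on the gene's own strand, with matches in capitals, to show how the letters of Mcm6 compare with those of the others.
Mcm6 (chr1:128359656-128359955, minus strand): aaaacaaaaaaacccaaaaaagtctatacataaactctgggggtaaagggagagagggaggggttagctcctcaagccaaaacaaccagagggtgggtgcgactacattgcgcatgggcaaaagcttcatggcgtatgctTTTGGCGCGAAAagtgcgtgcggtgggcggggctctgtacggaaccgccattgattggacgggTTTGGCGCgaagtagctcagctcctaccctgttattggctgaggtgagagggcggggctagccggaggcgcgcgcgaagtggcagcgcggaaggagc
Mcm3 (chr1:20820263-20820562, minus strand): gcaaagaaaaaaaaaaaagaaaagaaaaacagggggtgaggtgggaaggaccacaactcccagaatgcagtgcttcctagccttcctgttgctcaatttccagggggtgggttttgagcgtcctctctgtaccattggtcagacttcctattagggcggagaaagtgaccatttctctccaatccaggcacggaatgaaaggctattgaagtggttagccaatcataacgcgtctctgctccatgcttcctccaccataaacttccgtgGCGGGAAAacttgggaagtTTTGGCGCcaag
Mcm5 (chr8:75109259-75109558, plus strand): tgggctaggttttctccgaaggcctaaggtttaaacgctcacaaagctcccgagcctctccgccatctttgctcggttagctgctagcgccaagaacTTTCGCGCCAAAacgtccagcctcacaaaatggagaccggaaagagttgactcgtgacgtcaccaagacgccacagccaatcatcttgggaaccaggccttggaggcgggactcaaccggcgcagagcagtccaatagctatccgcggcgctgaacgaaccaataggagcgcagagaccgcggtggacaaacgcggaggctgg
Mcm7 (chr5:138171834-138172133, minus strand): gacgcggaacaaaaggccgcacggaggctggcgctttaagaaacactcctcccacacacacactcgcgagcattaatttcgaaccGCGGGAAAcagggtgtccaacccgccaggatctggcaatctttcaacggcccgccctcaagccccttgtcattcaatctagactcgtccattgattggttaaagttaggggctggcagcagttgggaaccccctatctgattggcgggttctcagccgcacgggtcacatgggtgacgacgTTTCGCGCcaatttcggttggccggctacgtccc

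The Mcm6 window holds 3 matches, TTTGGCGC at -110, the reverse-strand GCGCGAAA at -106 that overlaps it, and a second TTTGGCGC at -47, where positions count the first printed base from the start site. Mcm3 has 2 matches at 20 and 39, Mcm5 has an overlapping pair at -153 and -149, and the printed window of Mcm7 has 2 at -165 and 17, while the other Mcm7 entry in the table has none. Promoters with 2 or more matches make up 0.0974% of the table. No match was found in the windows of Mcm2 and Mcm10. The letters CCAAT, on either strand, occur in the windows of all 6 members and in 37.4% of all promoters. Mcm6 therefore holds the same kinds of letters as Mcm3, Mcm5 and Mcm7, and their part in its level was not tested. A match is a run of letters and not a measured binding site.

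The share of Mcm6 among the subunits of the ring does not depend on library scaling. Mcm6 took 28.3, 23.6, 19.3, 22.6 and 25.6% of the Mcm2 to Mcm7 counts in the WT libraries and 21.1, 27.9, 17.6, 24.9 and 26.4% in the KO libraries. In the dKO libraries it took 12.1, 6.94, 11, 12.4 and 12.98%. No dKO library reached the lowest KO or WT library. The mean shares were 23.9 ± 3.37% (WT), 23.6 ± 4.18% (KO) and 11.1 ± 2.42% (dKO; SD, n = 5 each). Over each group's pooled reads these were 264 of 1095 counts (24.1%), 519 of 2255 (23.0%) and 179 of 1511 (11.8%). With dKO replicates 4 and 5 left out or summed, the dKO mean was between 10.02 and 10.7%.

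**Figure D2:**
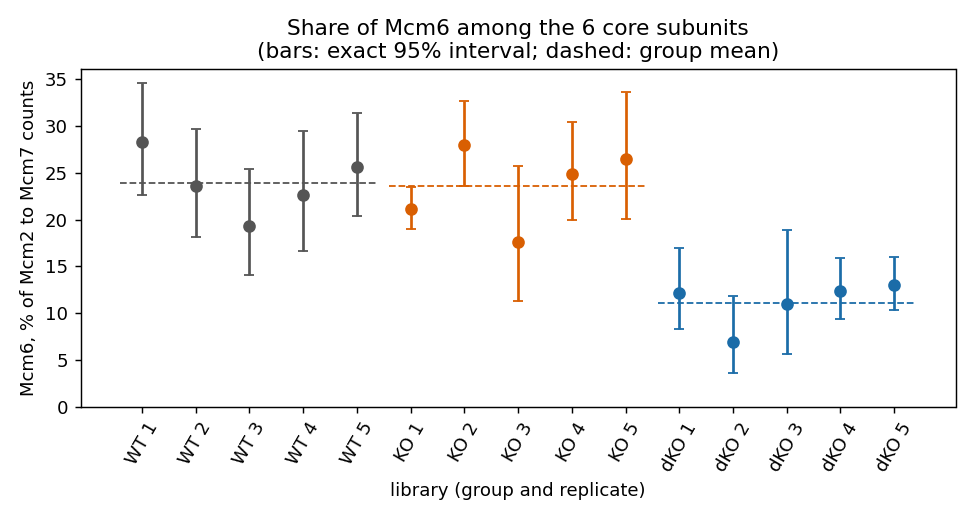
Share of Mcm6 in the summed Mcm2 to Mcm7 counts (y axis, %) in each of the 15 libraries (x axis, group and replicate). Points carry exact 95% binomial intervals, which cover counting error only, and dashed lines are group means. The 5 dKO libraries lie between 6.94 and 12.98%, below the lowest KO library at 17.6%, and Mcm6 was chosen on these same counts.

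Since Mcm3 also lies on chromosome 1, 109.418 Mb from Mcm6, the subunits on other chromosomes are Mcm2 on 6, Mcm4 on 16, Mcm5 on 8, Mcm7 on 5 and Mcm10 on 2. Adding the other 5 ring subunits gave 49.8 ± 3.87 CPM (WT), 48.9 ± 6.63 (KO) and 49.9 ± 11.7 (dKO; SD, n = 5 each). The log2 difference in this sum was 0.01 (SE 0.17) between dKO and KO, -0.02 (SE 0.15) between dKO and WT, and -0.03 (SE 0.10) between KO and WT. The two-sided exact permutation p-values were 0.952, 0.921 and 0.77, each 0.952 after Benjamini-Hochberg adjustment over the 3 comparisons, where 5 against 5 can reach 0.00794. The rest of the ring thus did not differ between groups beyond the spread of the libraries, which was widest in dKO. In dKO this sum was 68.2 CPM in replicate 1, where Mcm6 was highest, and 40.4 in replicate 2, where Mcm6 was lowest.

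None of the 5 other ring subunits tested was called in any comparison by edgeR's quasi-likelihood test with Benjamini-Hochberg adjustment over 12188 genes at 0.05. The test called 0.624% of all genes between KO and WT, 0.0738% between dKO and KO, and 0.615% between dKO and WT, so a count of 0 among 5 genes is near the background. At an unadjusted p under 0.05 the count was also 0 in each comparison, and DESeq2 and limma called none. Nor did any of the 5 have groups that did not overlap, which held for 3.16% of all genes between KO and WT, 1.16% between dKO and KO, and 2.1% between dKO and WT. Their log2 fold changes ran from -0.20 to 0.45 for KO against WT, from -0.27 to 0.17 for dKO against KO, and from -0.31 to 0.19 for dKO against WT. The lowest adjusted p among them was 0.705, 0.9 and 0.641 in that order. The 95% intervals, from the SE of each fold change, reached from -0.82 to 0.61 for dKO against KO and from -0.86 to 0.76 for dKO against WT, so changes within these bounds could not be told from the error of the fit.

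**Figure D3:**
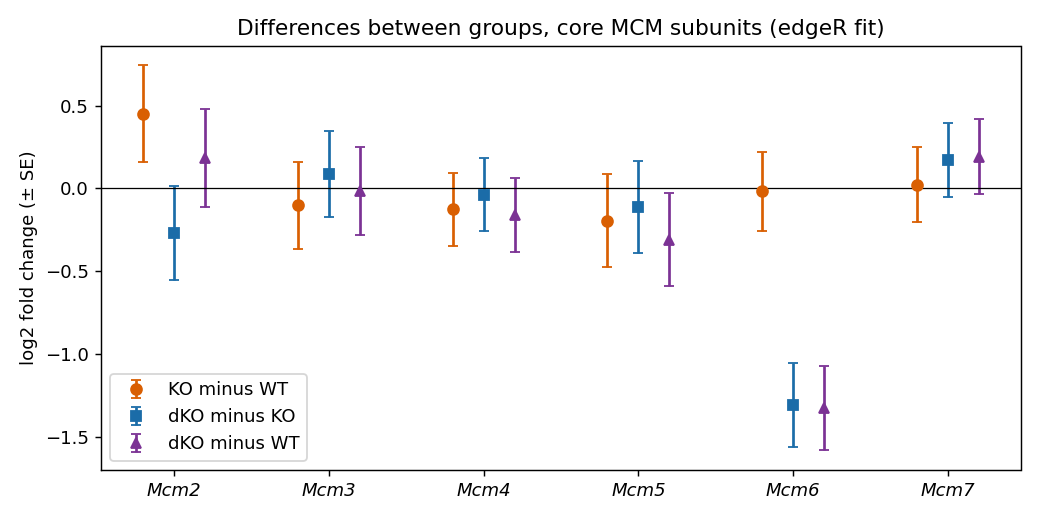
Log2 fold changes (y axis) of the 6 ring subunits in the edgeR fit for KO minus WT (circles), dKO minus KO (squares) and dKO minus WT (triangles), with bars of 1 SE. The dKO values of Mcm6 are -1.31 and -1.33, while the others lie between -0.31 and 0.45.

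MCM4, MCM6 and MCM7 form the stable core of the ring that has helicase activity on its own, so Mcm4 and Mcm7 are described first. The gene Mcm4 (ENSMUSG00000022673, chromosome 16, 15623990 to 15637493, mm9) was at 11.2, 21.4, 15.1, 14.1 and 17.4 CPM in WT. It was at 13.7, 13.9, 12.5, 19.6 and 13.1 CPM in KO and at 21.1, 11.3, 18.03, 11.3 and 11.4 CPM in dKO. The 3 groups overlapped over most of their range, with means of 15.9 ± 3.79, 14.5 ± 2.87 and 14.6 ± 4.64 CPM (SD, n = 5 each). For dKO against KO the log2 fold change was -0.04 (SE 0.22, adjusted p 0.989 in edgeR's quasi-likelihood test).

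Mcm7 (ENSMUSG00000029730, chromosome 5, 138605811 to 138613650) was at 13.9, 14.3, 8.32, 13.7 and 12.3 CPM in WT and at 14.9, 10.9, 9.89, 14.7 and 12.3 CPM in KO. In dKO it was at 19.8, 15.3, 18.7, 9.46 and 10.7 CPM. The first 3 dKO libraries were above every KO library, and of the 2 that share a mouse number 1 was below the KO range and 1 within it, so the groups overlapped. The means were 12.5 ± 2.45, 12.5 ± 2.22 and 14.8 ± 4.63 CPM (SD, n = 5 each). Against KO the log2 fold change in dKO was 0.17 (SE 0.22, adjusted p 0.92 in the same edgeR test), and without the 2 libraries that share a mouse number it was 0.49 (adjusted p 0.483). Ap4m1 and Cops6 on the other strand overlap Mcm7 by 421 and 64 bases, and the strand setting of the counting is not given in the sources used here, so reads of these genes cannot be told apart in the overlap.

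MCM2, MCM3 and MCM5 are the regulatory side of the ring, and MCM2 and MCM5 flank the gate through which DNA enters. Mcm2 (ENSMUSG00000002870, chromosome 6, 88833469 to 88848774) averaged 5.36 ± 1.35 CPM (WT), 7.47 ± 2.75 (KO) and 6.11 ± 1.81 (dKO; SD, n = 5 each). Its WT libraries ran from 3.56 to 7.32 CPM, its KO libraries from 4.99 to 11.8 and its dKO libraries from 3.01 to 7.47. Its log2 fold change of 0.45 for KO against WT (SE 0.29, adjusted p 0.705 in edgeR's test) was the farthest from 0 among the 5. Mcm3 (ENSMUSG00000041859, chromosome 1, 20793055 to 20810359) averaged 8.92 ± 3.17, 8.03 ± 1.92 and 8.84 ± 1.73 CPM, so the second subunit on chromosome 1 differed between dKO and KO by a log2 fold change of 0.09 (SE 0.26, adjusted p 0.973 in edgeR's test). Mcm5 (ENSMUSG00000005410, chromosome 8, plus strand, 77633427 to 77652338) averaged 7.17 ± 2.22, 6.37 ± 1.08 and 5.58 ± 2.41 CPM. For Mcm5 the dKO libraries held 5 to 66 counts, with levels from 3.11 to 8.44 CPM that spanned the KO range of 5.33 to 7.99.

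Mcm10 (ENSMUSG00000026669, chromosome 2, 4910760 to 4933837), the activating factor outside the ring, had 1 to 31 counts per library. It averaged 1.59 ± 0.737 CPM (WT), 1.48 ± 0.682 (KO) and 2.09 ± 1.26 (dKO; SD, n = 5 each), and was not tested in the main fit. With no filter its log2 fold changes were 0.01 for KO against WT, 0.36 for dKO against KO and 0.36 for dKO against WT, with adjusted p of 1, 0.874 and 0.812 in edgeR's test. The WT libraries held 3 to 7 counts of Mcm10 each, so its level is the least precise of the family.

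Per kilobase of exon, the level order in WT was Mcm4 at 4.42 CPM per kb, Mcm6 at 3.58, Mcm3 at 2.98, Mcm7 at 2.82, Mcm5 at 2.05, Mcm2 at 1.59 and Mcm10 at 0.206. In KO Mcm4 at 4.05 and Mcm6 at 3.53 CPM per kb again came first. In dKO the order was Mcm4 at 4.07, Mcm7 at 3.34, Mcm3 at 2.95, Mcm2 at 1.81, Mcm5 at 1.59, Mcm6 at 1.45 and Mcm10 at 0.271 CPM per kb. Mcm6 was thus the second in WT and KO and the sixth in dKO. Apart from Mcm10, which was lowest in every library, the only neighbours in these orders whose levels kept 1 direction in all 5 libraries of a group were Mcm3 and Mcm2 in dKO, and the others did not differ beyond their spread.

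Neighbouring genes on chromosome 1 were compared because Hdac4, the gene floxed in dKO alone, lies on the same chromosome, 36.2 Mb below Mcm6. Of 26 features within 2 Mb of Mcm6, 12 were tested, and edgeR's test called none in any comparison. At an unadjusted p under 0.05 there were 1, 1 and 2 of the 12 in the comparisons of KO with WT, dKO with KO and dKO with WT, or 8.33, 8.33 and 16.7%, near the 9.54, 6.17 and 14.5% of all genes. Dars, an aspartyl-tRNA synthetase gene whose nearer end lies 0.004 Mb above Mcm6, averaged 31.5, 34.3 and 28.6 CPM in WT, KO and dKO. Ubxn4, 0.052 Mb below, averaged 85.1, 90.2 and 91.3 CPM, R3hdm1, 0.094 Mb below, averaged 77.1, 80.8 and 76.6 CPM, and Zranb3, 0.229 Mb below, 4.31, 4.45 and 4.33 CPM. Cxcr4, a chemokine receptor gene 0.229 Mb above, averaged 21.0 ± 16.2, 11.2 ± 2.06 and 12.7 ± 7.72 CPM (SD, n = 5 each), with a log2 fold change of -0.82 (SE 0.50) for dKO against WT and 0.07 (SE 0.51) for dKO against KO. Gm17699, 0.411 Mb above, averaged 10.7, 10.5 and 8.27 CPM, with log2 fold changes of -0.44 (SE 0.26) and -0.40 (SE 0.25) in the same order. Among the 12, 9 had a negative log2 fold change for dKO against KO and 11 for dKO against WT, with medians of -0.12 and -0.17 beside 0.00 and -0.00 over all genes. Ysk4, a kinase gene 0.491 Mb below Mcm6 singled out after its values were seen, was the only one of the 12 whose dKO and KO libraries did not overlap. Groups did not overlap for 1.16% of all genes in this comparison. In dKO Ysk4 was at 1.30, 2.26, 2.49, 0.350 and 0.509 CPM (4, 9, 4, 3 and 6 counts). In KO it was at 3.68, 3.31, 3.87, 6.33 and 8.71 CPM (76, 20, 9, 22 and 24 counts). The log2 fold change was -2.22 (SE 0.49). The lowest dKO values are those of the 2 libraries that share a mouse number. Ysk4 was not called for dKO against KO in the main edgeR test (adjusted p 0.14). With no filter edgeR called it (adjusted p 0.0451), as did DESeq2 (adjusted p 0.00987). Under 22 of 24 alternatives no gene within 2 Mb of Mcm6 was called for dKO against KO. With the libraries of the shared mouse number summed or left out, edgeR called no gene within 2 Mb of Mcm6.

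**Figure D4:**
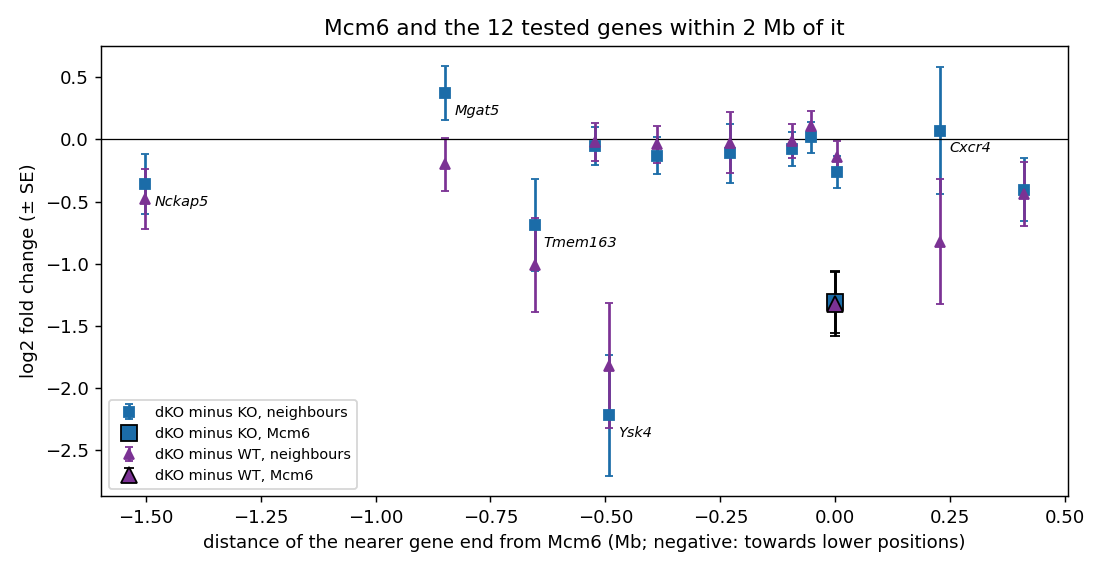
Log2 fold changes with bars of 1 SE (y axis) for Mcm6 and the 12 tested genes within 2 Mb of it, by distance of the nearer gene end in Mb (x axis, negative towards lower positions). Squares are dKO minus KO and triangles dKO minus WT. Mcm6 at 0 lies at -1.31 and -1.33. Ysk4 lies lower, at -2.22 and -1.82, and Tmem163 lies at -0.69 and -1.01. Dars, the closest gene, lies at -0.26 for dKO minus KO. Of the 12 neighbours, 9 are negative for dKO minus KO and 11 for dKO minus WT.

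Genes whose log2 CPM varied most like Mcm6 over the 15 libraries, among 12167 compared, were Prr3 (Pearson r 0.82), Il22ra2 (0.80), Arpc2 (0.80), Lyz1 (0.80) and Slc43a2 (0.78). Il22ra2, a soluble receptor of interleukin 22, averaged 11.7, 9.31 and 3.58 CPM in WT, KO and dKO. Lyz1, a lysozyme gene, averaged 49.3, 36.4 and 26.0 CPM. Prr3 averaged 10.8, 11.3 and 8.37 CPM, Arpc2 139, 138 and 126 CPM, and Slc43a2 50.8, 46.0 and 37.0 CPM. Since these genes were picked by their likeness to Mcm6, lower means in dKO follow in part from that choice. For the mean of the other 5 ring subunits the most alike were Bin1 (0.87), Hnrnpf (0.86), Sec11c (0.85), Gm2078 (0.85) and Actb (0.85), none of which is among those for Mcm6. These are descriptions over libraries that share groups and depth. Between Mcm6 and each other ring subunit r ran from -0.12 to 0.47 over the same libraries, and between pairs of the others from -0.44 to 0.50, so at these counts the subunits did not vary together closely.

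Other genes of DNA replication and the cell cycle were read from 5 lists, of which 96 of 109 genes were tested. The edgeR test called none in any comparison, and 11, 8 and 9 of the 96 had an unadjusted p under 0.05 in the comparisons of KO with WT, dKO with KO and dKO with WT. These are 11.5, 8.33 and 9.38%, beside 9.54, 6.17 and 14.5% of all genes tested. The medians of the log2 fold changes were -0.12, 0.01 and -0.09. Mcmbp, which encodes a protein that binds the MCM subunits, averaged 62.5, 64.8 and 62.3 CPM in WT, KO and dKO. Among 20 tested genes of origin licensing and helicase activation, Orc3 of the origin recognition complex averaged 71.2, 84.2 and 75.8 CPM. Among 30 genes of DNA synthesis, Pcna, the sliding clamp of the replication fork, averaged 46.6, 42.9 and 51.9 CPM.

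Among 26 tested genes of E2F and retinoblastoma control, Ccnd2, which encodes the D-type cyclin 2, averaged 167 ± 13.96 CPM (WT), 119 ± 8.32 (KO) and 185 ± 51.9 (dKO; SD, n = 5 each). Its log2 fold change was -0.49 (SE 0.16) for KO against WT and 0.64 (SE 0.16) for dKO against KO, and the main test did not call it (adjusted p 0.23 for dKO against KO). DESeq2 called it for dKO against KO, with an adjusted p of 0.0326, as did the edgeR test without dKO replicate 1 (0.0417). Cdkn1a, the gene of the cell cycle inhibitor p21, had the lowest p of the list and is named after its values were seen. It averaged 12.9 ± 4.64 CPM (WT), 26.6 ± 7.46 (KO) and 18.1 ± 4.88 (dKO; SD, n = 5 each). Its log2 fold change was 1.06 (SE 0.25) for KO against WT, with an adjusted p of 0.0711 in edgeR's test and of 0.00986 to 0.0369 under the 6 alternatives that called it. Among 16 tested mitosis genes, 15 had a negative log2 fold change for KO against WT (median -0.33), 5 for dKO against KO (median 0.08) and 14 for dKO against WT (median -0.24). Mki67, the proliferation marker Ki-67, averaged 74.5, 59.0 and 62.7 CPM, and Top2a, the topoisomerase of dividing cells, 27.0, 22.9 and 24.4 CPM. Both means were higher in dKO than in KO by less than 1 SD. For KO against WT, the log2 fold changes of macrophage markers were negative for 11 of 11 genes (median -0.50) and those of stromal progenitor markers for 7 of 8 tested (median -0.35), and their part in the mitosis values was not tested.

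Fewer cells of a type and less RNA per cell cannot be told apart in whole tissue, and markers of other cell types differed between libraries. Lymphocyte markers, 15 genes, spanned summed levels of 724 to 1436 CPM (WT), 894 to 1141 (KO) and 403 to 1200 (dKO), and 14 of the 15 had a negative log2 fold change for dKO against KO. The low dKO values, 404 and 403 CPM, are those of the 2 libraries that share a mouse number, while the other 3 dKO libraries were at 1200, 740 and 1044 CPM. In those 3, Mcm6 was at 9.41, 3.01 and 6.84 CPM, and without the 2 libraries its log2 fold change was -1.31 against KO and -1.34 against WT. Stromal progenitor markers, 9 genes, summed to 1158 to 3323, 1155 to 1843 and 812 to 2910 CPM in the same order of groups. Macrophage markers, 11 genes, summed to 919 to 1822, 769 to 1049 and 659 to 954 CPM, with 8 of 11 negative for dKO against KO and 11 of 11 for dKO against WT. No gene of these lists was called, and none was at 0 in all libraries. At an unadjusted p under 0.05 in edgeR's test, 9 of the 11 macrophage markers passed between dKO and WT. Between KO and WT 6 passed, and between dKO and KO 1 did. The shares of all genes tested were 14.5, 9.54 and 6.17% in that order. Lymphocyte markers had 2, 0 and 1 of 15 in the same order, and stromal progenitor markers 1, 1 and 1 of 8 tested. A covariate was made from the mean of the standardised log2 CPM of the lymphocyte markers. With it, the log2 fold change of Mcm6 was -1.15 for dKO against KO and -1.17 for dKO against WT. The part of macrophage markers in the Mcm6 result was not tested.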

How the data were processed

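Per the labels' protocols, RNA of inguinal white adipose tissue was extracted with an RNeasy kit and turned into libraries with Ovation kits of NuGEN. The submitters' processing notes name edgeR, featureCounts, Subread and FastQC, and mm9 as the build. The sources used here do not give versions, the strand setting or how multi-mapping reads were treated, so reads of overlapping genes may be shared. The deposited table gives raw counts per gene and the length of each feature, per the file headers, and the counts were used as the authors deposited them. Its 45 columns of scaled values for the same libraries were not used.

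Groups were taken from the titles and genotypes. P-values measure the spread between these libraries, of which 2 may come from 1 mouse. Genes were kept by filterByExpr with its minimum count set to 10 and its minimum total count to 15, which left 12188. It did not require 10 counts in every library, as Mcm5 passed with 5 in dKO replicate 3. Differences were fitted with edgeR 4.0.16 in R 4.3.3 (TMM scaling, quasi-likelihood test, all 15 libraries, group as the only term, 12 residual degrees of freedom), with Benjamini-Hochberg adjustment over all genes tested and calls at 0.05. CPM is the count over the TMM library size, and fold changes use edgeR's default prior. The fit was tested on simulated data with known changes. Alternatives were DESeq2 1.42.0, limma 3.58.1 (voom with sample weights), other size factors, no filter, only the groups compared, a lymphocyte covariate, mitochondrial ribosomal RNA left out, the libraries with the same mouse number summed or left out, and each library left out in turn. Correlations used log2 CPM with a prior count of 2, over genes with a mean of at least 1. Intervals on shares are exact (Clopper-Pearson) at 95% and cover counting error only. Named genes are all members and the 3 nearest tested genes on each side of Mcm6. Some, not all, of the most abundant tested genes of each list are named. Also named are the 5 genes most like Mcm6 or like the mean of the other ring subunits. Cdkn1a and Ysk4 are named outside these rules, after their values were seen. Members and lists were chosen with earlier results of these data known. Promoter windows are those of the RefSeq table of GRCm38.p6 and were not placed on the mm9 coordinates.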

Additional observations from a re-analysis of the deposited data

Results flagged for a closer look

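In 66 groups of 5 values tested for a library far from the others, 6 had one, where chance flags about 1 in 20. Mcm4 stood at 19.6 CPM in KO replicate 4, above the other KO libraries. The summed DNA synthesis genes stood low in dKO replicate 2 at 313 CPM, the library in which Mcm6 was lowest, and the summed mitosis genes stood high in dKO replicate 1 at 229 CPM, the dKO library in which Mcm6 was highest. Skeletal muscle markers summed to 1196 CPM in WT replicate 1 and to 3106 CPM in KO replicate 3, and epithelium markers to 38.2 CPM in WT replicate 1. Their part in the Mcm6 values was not tested, and leaving out each of these libraries is among the alternatives given with the processing.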

How the results depend on the processing

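No paired analysis was possible because the samples carry only labels of single mice, none shared between groups. Under 24 alternatives, 747 of 794 values were held to be the same. Tested values stayed on their side of the threshold, and values not tested stayed within the spread of the libraries. The others moved, and all that moved were counts of called genes, which were judged by the size of their change. For KO against WT, a change from 76 to 51 genes was held the same and one to 41 was not. The sign changed in 47 of the 747, with 0 of them called, all for fold changes that lay within 0.16 of 0 on the log2 scale, such as Mcm6 for KO against WT (to 0.09), Mcm3 for KO against WT (to 0.12) and Mcm4 for dKO against KO (to 0.23). So no direction is given for these. Mcm6 stayed lower in dKO throughout, and with each library left out its dKO share was between 10.6 and 12.1%. Over 360 values of the other 5 ring subunits 0 were called, with adjusted p from 0.354 (Mcm4, dKO against WT without dKO replicate 1) to 1.

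Counts over all genes moved far more, and the cause was not tested. For KO against WT (76 genes) they were 173 with DESeq2, 275 with limma voom, 224 with only the 2 groups fitted, 270 without both libraries of the shared mouse number, 386 with the lymphocyte covariate, and 36 (without KO replicate 1) to 93 with each library left out. For dKO against KO (9 genes) they were 19 with no filter, 37 with DESeq2, 5 with 2 groups, 4 with the pair summed, 19 without both, 39 with the covariate and 4 (without KO replicate 1) to 13 with each library left out. For dKO against WT (75 genes) they were 235 with DESeq2, 28 with voom, 32 with 2 groups, 26 with the pair summed, 30 without both and 27 (without dKO replicate 4) to 240 (without dKO replicate 1) with each library left out. Among the replication and cell cycle lists, KO against WT called 1 gene with no filter or DESeq2 (Cdkn1a) and 2 with voom, 2 groups, both libraries out or the covariate (Cdkn1a and Ccnd2). For dKO against KO the lists had 1 call with DESeq2 and 0 to 1 with each library left out (Ccnd2). Near Mcm6, Ysk4 was the 1 call for dKO against KO with no filter and with DESeq2, and the 1 call for dKO against WT with DESeq2. Counts of 5 to 110 for Mcm5 and 1 to 31 for Mcm10 per library limit the precision of the lower members.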
